A study of Mus musculus with 8 samples.

Results

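DMRT6 is a DNA-binding protein of male germ cells, and this account covers the places in adult mouse testis where it was found between genes but within reach of one. Of the 14862 deposited DMRT6 peaks, 3562 (24.0%, exact 95% binomial interval 23.3 to 24.7) met a rule based on position alone. The middle of the peak lay in no gene of the expression table, and it lay more than 1 kb and at most 50 kb from the nearest gene 5' end. The other peaks comprised 2724 within 1 kb of a 5' end, 5989 deeper inside genes and 2587 intergenic peaks farther than 50 kb from any 5' end. The 3562 intergenic peaks had 2814 different genes as their nearest genes.

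The peaks came from 1 chromatin immunoprecipitation (ChIP) library made from formaldehyde-fixed adult wild-type testis, with 1 input library from the same kind of tissue, both given as C57BL/6, Mixed. The antibody was a rabbit polyclonal serum against the last 148 amino acids of DMRT6. Expression was measured separately, in whole testis at postnatal day 8 (P8), in 3 wild-type and 3 Dmrt6 null libraries on a C57BL/6 background. The series' design describes each trio as biological replicates. The labels give neither the structure of the null allele nor the exact age of the adult animals. Binding and expression therefore come from different stages, and both from tissue in which germ cells are mixed with somatic cells.

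DMRT proteins bind DNA through a zinc-binding DM domain and act as transcription factors in sex determination and germ cell development. In the mouse testis DMRT6 is known from differentiating spermatogonia, the mitotic cells that turn off spermatogonial genes before meiosis begins. Many enhancers lie between genes, at some distance from the gene they act on, but a peak does not show which gene, if any, a site acts on. "Nearest gene" is used below for position only.

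No sequence of a peak is printed, because no genome of the build of the files (mm9) was used here. Sequences of some nearest genes are shown as background to those genes. At 2 of the peaks the nearest gene encoded a let-7 microRNA, a family of small RNAs that repress messenger RNAs. These RefSeq mature sequences (GRCm38.p6) are shown to compare their seeds, bases 2 to 8, in capitals:
mmu-let-7c-5p: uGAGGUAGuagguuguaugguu
mmu-let-7d-5p: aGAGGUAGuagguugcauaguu
The seed was the same in both, and 19 of 22 bases were identical, which describes the RNAs and not the peaks. The peak nearest to Mirlet7c-2 (chromosome 15, 85505840 to 85506050, mm9) lay 31088 bp upstream of it, and the peak nearest to Mirlet7d (chromosome 13, 48623203 to 48623377) lay 8193 bp downstream.

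The RefSeq promoter of Stra8, the gene that starts the meiotic programme in response to retinoic acid, is shown because its only nearby peak was an intergenic one, 21659 bp downstream of its 5' end. The window (GRCm38.p6, chromosome 6, 34920698 to 34920997, plus strand) runs from 250 bases before the start to 50 after it. Capitals mark a match to ACATTGT, the centre of published DMRT binding sites, searched on both strands (ACAATGT on the other), where no second match overlapped it:
Stra8: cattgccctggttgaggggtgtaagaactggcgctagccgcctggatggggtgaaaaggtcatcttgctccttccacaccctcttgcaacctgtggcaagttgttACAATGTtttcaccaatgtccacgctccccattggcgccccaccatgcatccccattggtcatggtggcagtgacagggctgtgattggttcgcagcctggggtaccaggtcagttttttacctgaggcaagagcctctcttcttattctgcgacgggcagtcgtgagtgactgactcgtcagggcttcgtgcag
The match began 145 bases before the start. Of the 2 RefSeq windows of Dmrtb1, which has a peak 66 bp from its 5' end, the outermost did not hold these letters. No result is given for the other window. These letters occur in 2.96% of the 32851 RefSeq promoter windows of that length, and the deposited list holds no peak within 1 kb of the Stra8 5' end. A match describes the letters and does not show a bound site.

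The peaks were densest close to genes. The eligible sequence, counted base by base by the same rule, came to 505 Mb, and it held 7.05 peaks per Mb (exact 95% Poisson interval 6.82 to 7.28). From 1 to 5 kb the density was 11.4 per Mb (10.6 to 12.3), from 5 to 10 kb it was 7.79 (7.17 to 8.45), from 10 to 20 kb 7.03 (6.57 to 7.51), and from 20 to 50 kb 5.61 (5.32 to 5.92). The nearest band was thus 2.03 times as dense as the farthest (95% interval 1.86 to 2.22). Just outside the rule, sequence beyond genes within 1 kb of a 5' end held 74.6 peaks per Mb (70.6 to 78.9). All of these intervals cover counting error only, and with 1 ChIP library there is no replicate error and no test.

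The median distance was 14.4 kb, with the middle 50% of peaks between 5.87 and 27.1 kb. Upstream of the nearest 5' end lay 2612 peaks, 73.3% (71.8 to 74.8), where upstream sequence made up 70.4% of the eligible bases. The remaining 950 lay past the far end of their nearest gene. Between 1 and 5 kb the upstream density was 11.9 per Mb (10.997 to 12.8) against 8.96 (7.24 to 10.97) downstream. Between 20 and 50 kb the values were 5.52 (5.16 to 5.90) and 5.78 (5.28 to 6.31). The intervals of the sides just missed each other near genes and overlapped far from them. Eligible downstream sequence at 1 to 5 kb exists only past genes shorter than 5 kb (10.5 Mb, against 56.5 Mb upstream). The sides near genes therefore compare different genes.

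**Figure D1:**
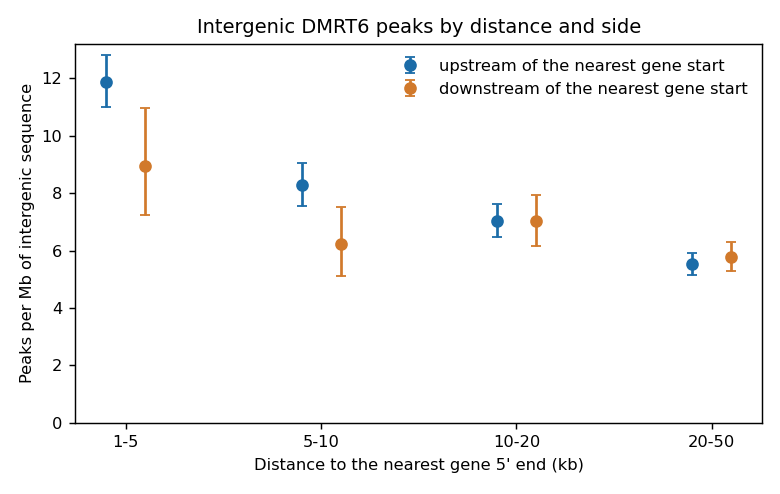
Intergenic DMRT6 peaks per Mb of eligible sequence (y axis) by distance to the nearest gene 5' end in kb (x axis), upstream (blue) and downstream (orange) of that gene start. Points are densities and bars exact 95% Poisson intervals. The upstream density falls from 11.9 per Mb at 1 to 5 kb to 5.52 at 20 to 50 kb.

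Densities overlapped between arrangements of the flanking genes. Gaps between genes on the same strand held 7.03 peaks per Mb (6.72 to 7.35), gaps between diverging genes 7.27 (6.84 to 7.72) and gaps between converging genes 6.81 (6.27 to 7.39). Sequence within 1 kb of a gene's 3' end was denser, at 10.8 per Mb (9.10 to 12.7), but held only 147 of the peaks. Of all 3562, 1419 lay nearer to a 3' end than to a 5' end.

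By the authors' score the intergenic peaks resembled peaks deep inside genes. The median score was 99.3 (95% interval of the median 96.6 to 101.3) and ranged from 50.02 to 3100. It was 100 (98.4 to 102) for peaks inside genes beyond 1 kb, 85.5 (83.8 to 87.3) for peaks within 1 kb of a 5' end and 89.3 (88.1 to 91.1) for intergenic peaks beyond 50 kb. A score of at least 200 was reached by 678 of the intergenic peaks, 19.0% (17.8 to 20.4), against 11.5% (10.4 to 12.8) within 1 kb of a 5' end and 12.1% (10.9 to 13.5) beyond 50 kb. With all peaks ranked by score, they made up 19.9% (18.4 to 21.3) of the lowest 2972 and 26.6% (25.1 to 28.3) of the highest 2973. They were 27 of the 100 highest-scoring peaks and 24.0% of all peaks. Median width was 175 bp, from 59 to 1049 bp, where peaks within 1 kb of a 5' end had a median of 200 bp. Median scores were slightly lower farther out, from a median of 105 at 1 to 5 kb (101.2 to 111) to 95.4 at 20 to 50 kb (91.9 to 98.98).

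**Figure D2:**
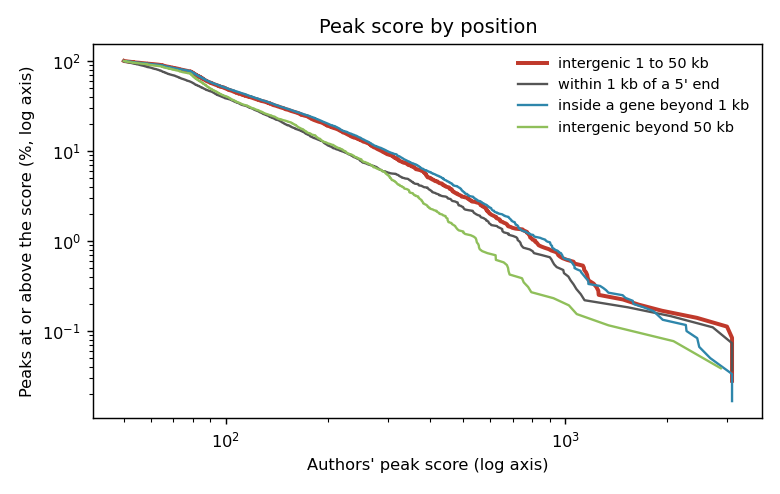
Percent of peaks at or above a score (y axis, log) against the authors' score (x axis, log) for intergenic peaks at 1 to 50 kb (red), peaks within 1 kb of a 5' end (grey), peaks deeper inside genes (blue) and intergenic peaks beyond 50 kb (green). At a score of 200 the red and blue lines stand at 19.0% and 20.1%, and the grey and green lines at 11.5% and 12.1%.

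The 3 peaks at the top score of 3100 had Atp2a2, Mcfd2 and Gm6905 as nearest genes. The same top score was reached within 1 kb of a 5' end and deeper inside genes, so peaks at 3100 are tied. Of the 10 highest-scoring peaks of the whole list, 4 were intergenic peaks of this kind. Atp2a2 encodes the calcium pump of the endoplasmic reticulum, and its peak lay 42291 bp upstream. Next came peaks near 2410004B18Rik (2996), Gm11981 (2443, chromosome 11, 6601427 to 6602084) and Psd2 (1925, chromosome 18, 36094136 to 36094649, 30092 bp upstream). A peak 9527 bp upstream of N4bp2 (chromosome 5, 66145055 to 66145411) scored 1647. One 32787 bp upstream of the X-linked gene Drp2 (chromosome X, 130906034 to 130906572), which encodes a dystrophin-related protein, scored 1478. The last of the 10 were near Gm10354 (1254, chromosome 5, 14985204 to 14985605) and 4917 bp downstream of Timm10 (1251, chromosome 2, 84671869 to 84672273), a gene of mitochondrial protein import. Another DMRT6 peak lay within 10 kb of those near Psd2 (1963 bp away), Timm10 (5339 bp) and N4bp2 (9252 bp). The widest peak, 1049 bp, lay 6487 bp upstream of Speer4d (chromosome 5, 15117871 to 15118919, score 1164), and another high peak (1066) lay 6674 bp upstream of Gm17019 (chromosome 5, 15039364 to 15039980). These 2 and the Gm10354 peak lie in the same stretch of chromosome 5 (14985204 to 15118919), but not within 10 kb of each other.

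The values at the limits of the rule are given as a description. The 3 peaks nearest to the inner limit lay 1003, 1003 and 1006 bp upstream of Ubn2, Mex3b and Hexim1 and scored 265, 53.0 and 72.0. The 3 intergenic peaks just excluded, at 998, 998 and 997 bp from Tmod1, Luzp1 and Egr3, scored 225, 92.8 and 81.2. At the outer limit peaks nearest to Tsku and Wasf3 (49976 and 49889 bp) scored 81.2 and 169. Those just beyond, near Pnp2, 1110021J02Rik and Gm12643 (50025, 50033 and 50045 bp), scored 126, 243 and 79.35.

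Peaks were unevenly spread over the chromosomes. The autosomes held 3503 of them at 7.58 per Mb (7.33 to 7.83), from 5.38 per Mb (4.46 to 6.42) on chromosome 14 to 10.7 (9.24 to 12.4) on chromosome 15 and 10.4 (9.26 to 11.6) on chromosome 11. The X chromosome held 59 at 1.38 per Mb (1.05 to 1.78), 5.49-fold below the autosomes. Few peaks of any position lay on X, which held 1.66% of the intergenic peaks and 1.22% of all peaks. The Y chromosome held 0 in only 0.527 Mb of eligible sequence, which allows up to 7.0 per Mb.

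On X the peaks were gathered in one place. Between 120 and 123 Mb, a window picked after the positions were seen, lay 40 of the 59 at 27.5 per Mb (19.6 to 37.4), with low scores of 50.9 to 148 and a median of 70.4. The 19 peaks on the remainder of X came to 0.460 per Mb (0.277 to 0.719), 16.5-fold below the autosomes. The window's nearest genes were predicted genes such as Gm7698 with 8 peaks and Gm7567 with 6, the most and the joint second most of any gene. The largest group of neighbouring peaks, 5 with centres within 4781 bp (121628809 to 121633750), also lay there, 44912 to 49693 bp upstream of Gm5642. Of all 182 DMRT6 peaks on X, whatever their position, the window held 87.

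**Figure D3:**
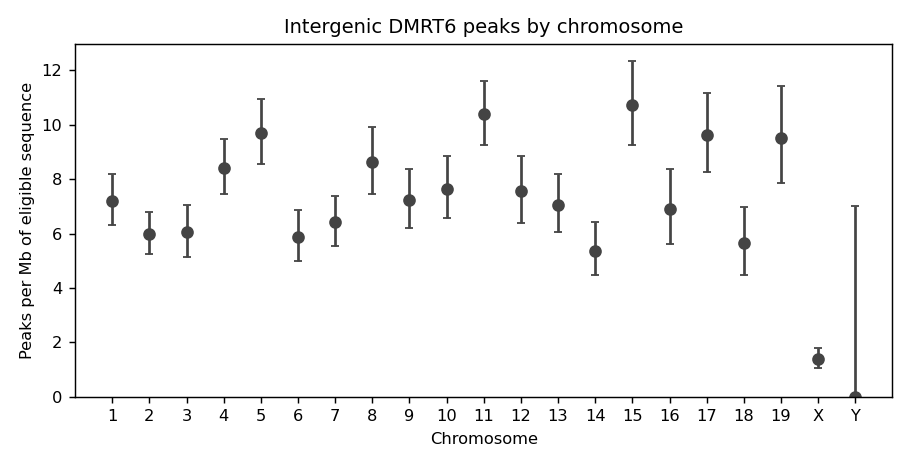
Intergenic DMRT6 peaks per Mb of eligible sequence (y axis) on each chromosome (x axis). Points are densities and bars exact 95% Poisson intervals. Chromosome X, at 1.38 per Mb, lies below the 19 autosomes, which range from 5.38 to 10.7.

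Most peaks stood alone. With neighbours within 10 kb of each other joined, 2698 peaks (75.7%) had no partner and 864 fell into 396 groups, 59 of them with 3 or more. Another DMRT6 peak of any position lay within 10 kb of 32.2% (30.6 to 33.7) of the intergenic peaks, against 14.5% (13.1 to 15.9) beyond 50 kb and 37.2% (35.4 to 39.1) within 1 kb of a 5' end.

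Of the 11 groups of 4, those with the highest single scores lay beside Btg2, Tardbp, 1810041L15Rik and Osbpl10. Btg2 encodes an antiproliferative protein induced by p53, and its peaks lay 11171, 11914, 15752 and 18633 bp downstream of its 5' end with scores of 201, 128, 505 and 91.2 (chromosome 1, 135956938 to 135964626). Tardbp encodes the RNA-binding protein TDP-43, and its peaks scored 208, 234, 105 and 355 at 14345, 17288, 25835 and 29778 bp upstream (chromosome 4, 148015361 to 148031071). Spink2, a protease inhibitor gene of the testis, had 2 peaks on each side, the highest at 620 and 24867 bp upstream. Sec11c, a signal peptidase subunit gene, was nearest to 5 peaks. Of the 2814 nearest genes 2236 had 1 peak, 455 had 2, and the others had 3 to 8.

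The Dmrt6 gene itself, listed as Dmrtb1 (chromosome 4, 107348895 to 107356835, minus strand), was nearest to 4 intergenic peaks. The nearest lay 3082 bp upstream with a score of 108.5. Farther out a group of 3 had centres within 5405 bp (107385463 to 107391136), at 28795, 33167 and 34200 bp upstream, with scores of 566, 68.0 and 179. The peak at 28795 bp scored above both peaks at the gene, which were 66 bp upstream (161) and 1164 bp inside (291).

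Several genes of undifferentiated spermatogonia, the population that holds the stem cells, were nearest genes. Of 21 such genes, 7 had an intergenic peak (33.3%, exact interval 14.6 to 57.0), where 12.4% of all 22744 genes did. None of the 21 had a peak within 1 kb of its 5' end, where 12.9% of all genes had one. Counting peaks of any position, 14 of the 21 were nearest to a peak, as were 8886 of all 22744 genes. The list was chosen with earlier results of these data known, and these differences were not tested. Sall4, a zinc finger gene of stem and progenitor cells, had the peak ranked 86th of the whole list, 39977 bp upstream (chromosome 2, 168633179 to 168633662, score 964), and a second at 31641 bp (score 54.1). Zbtb16, which encodes the self-renewal factor PLZF, had 1 at 12310 bp upstream (chromosome 9, 48656202 to 48656518, score 586). Nanos2, an RNA-binding repressor of differentiation, had 1 at 8556 bp upstream (chromosome 7, 19564210 to 19564424, score 227). The T-box gene Eomes had peaks at 20376 bp (182) and 40150 bp (88.8) upstream. Utf1, Etv5 and Nanos3 had 1 each, at 1278, 28049 and 2908 bp upstream with scores of 111, 96.0 and 73.9. All 9 peaks of these genes lay upstream.

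Among 18 differentiation genes 5 were nearest to an intergenic peak (27.8%, exact interval 9.69 to 53.5, which holds the 12.4% of all genes). They were Dmrtb1, Sox4 (168, 23456 bp downstream), Stra8 (128, chromosome 6, 34891720 to 34891924), Nanos1 (126, 1042 bp upstream) and the retinoic acid receptor gene Rarg (81.0, 5293 bp upstream). A peak within 1 kb of the 5' end was present at 7 of the 18, against 12.9% of all genes. The receptor gene Rara had a peak 2380 bp upstream (chromosome 11, 98786627 to 98786878, score 231), and it and Rarg were the 2 of 18 retinoic acid pathway genes with one. Mybl1, a transcription factor gene of meiotic cells, had one 2552 bp upstream (chromosome 1, 9692722 to 9692963, score 267) besides 2 within 1 kb of its 5' end, and was the 1 of 9 later regulators with one.

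Of 34 genes of meiotic entry and prophase 1, Stra8, was nearest to an intergenic peak (2.94%, exact interval 0.0744 to 15.3), an interval that holds the 12.4% of all genes. A peak within 1 kb of the 5' end was present at 7 of the 34, against 12.9% of all genes. The piRNA list had 1 of 15, Piwil1, with a low peak (52.9) at 49743 bp. Lists of somatic cells had 3 of 21 for Sertoli cells (Trf, Ctsl and Gata4), 2 of 11 for Leydig cells (Scarb1 and Hsd17b3), 2 of 13 for peritubular and stromal cells (Myh11, with peaks scoring 398 and 87.1 at 2208 and 2585 bp upstream, and Dcn), 1 of 8 for endothelial cells, 2 of 10 for macrophages and 0 of 7 for red blood cells. These lists are short, their genes were chosen with earlier results of these data known, and no difference between lists was tested.

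**Figure D4:**
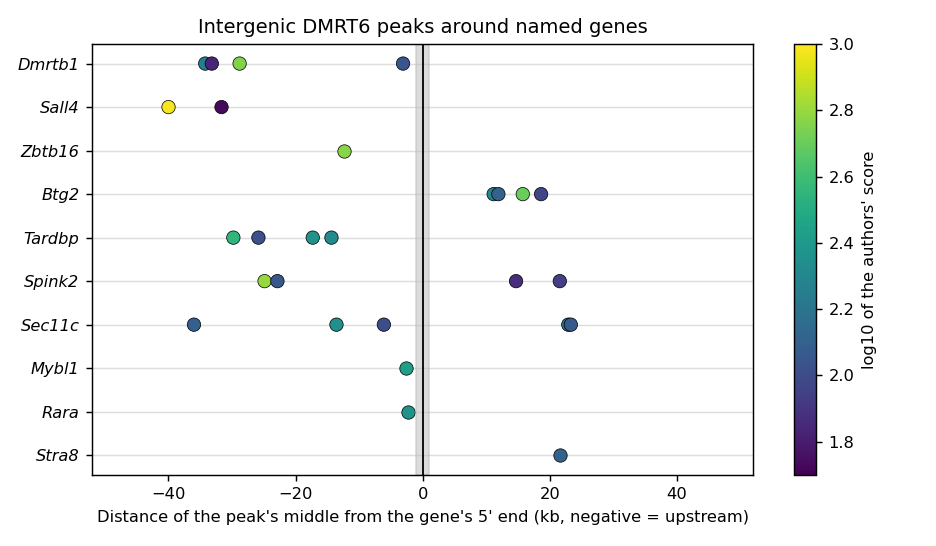
Intergenic DMRT6 peaks (points) nearest to 10 named genes (rows), by distance in kb from the gene's 5' end (x axis, negative upstream), coloured by log10 of the authors' score. The grey strip is the 1 kb on each side that the rule leaves out. The Btg2 peaks lie 11.2 to 18.6 kb downstream, the Sall4, Zbtb16 and Dmrtb1 peaks upstream.

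Nearest genes were transcribed at P8 about as often as genes in general. Averaged across all 6 libraries, 0 or more log2 CPM (CPM being reads of a gene scaled to library depth) was reached by 2114 of the 2814, 75.1% (73.5 to 76.7), against 73.1% of all genes and 91.9% of the 2496 nearest genes of peaks within 1 kb of a 5' end. The share was 80.3% (77.2 to 83.1) for genes nearest to a peak at 1 to 5 kb and 72.4% (69.7 to 74.98) at 20 to 50 kb. A second peak within 1 kb of the 5' end was present at 417 of the 2814, 14.8% (13.5 to 16.2), against 12.9% of all genes. For genes nearest to a peak at 1 to 5 kb this share was 18.3% (15.6 to 21.4).

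Loss of Dmrt6 was then read out in these 2114 genes from a limma fit to all 16634 tested genes. Dmrtb1, the targeted gene, was at 3.03, 4.12 and 3.21 log2 CPM in wild-type replicates 1, 2 and 3 and at -0.88, -0.13 and 0.03 in null replicates 1, 2 and 3. Every null library lay below every wild-type library, and it differed by -3.78 (SE 0.36, limma adjusted p = 0.0516). No gene of the 2114 passed an adjusted p of 0.05, where 0.00601% of all tested genes did, and limma's voom on the recovered reads also called 0. An unadjusted p below 0.05 was found for 75 (3.55%), against 3.47% of all tested genes. Of these 38 were higher in null and 37 lower, where 1.63% and 1.85% of all tested genes were. The 3 null libraries lay wholly above the wild-type libraries for 115 of the 2114 genes, and for 841 (5.06%) of all 16634 tested genes. They lay wholly below for 107 of the 2114, and for 1002 (6.02%) of all tested genes. Together these were 10.5% of the 2114, against 11.1% of all tested genes. These shares stand near the background and are not a result about genes near intergenic peaks.

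The median difference (null minus wild type) of the 2114 genes was 0.04 on the log2 scale, against 0.01 over all tested genes, and 56.3% were higher in null, against 51.7% of all. For genes nearest to a peak at 1 to 5 kb the median was 0.06. Without null replicate 3 the medians were 0.006 for the nearest genes and 0.004 for all tested genes. In whole testis, fewer cells of a type and less RNA per cell cannot be told apart. Summed levels of the 5 tested red blood cell genes were 1477 to 1776 CPM in wild type and 717 to 1255 in null, those of the 10 macrophage genes 228 to 346 and 190 to 259, and those of the 18 tested undifferentiated spermatogonia genes 376 to 441 and 419 to 661. In null replicates 1, 2 and 3 the undifferentiated spermatogonia sums were 452, 419 and 661. Those of the 18 differentiating spermatogonia genes were 1919 to 2160 in wild type and 1953 to 2379 in null. No gene of these lists was at 0 in all libraries, and the part of cell makeup in the differences was not tested.

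Sall4, Zbtb16 and Nanos2, the undifferentiated spermatogonia genes with the highest-scoring intergenic peaks, overlapped between genotypes. Sall4 was at 4.55, 4.75 and 4.05 log2 CPM in wild-type replicates 1, 2 and 3 and at 4.77, 4.40 and 6.07 in null replicates 1, 2 and 3, where null replicate 3 alone was above all wild-type libraries by more than 1 log2 unit. Its difference was 0.63 (SE 0.40, limma adjusted p = 0.755), and 0.14 without null replicate 3. Zbtb16 was at 5.35, 5.56 and 5.37 in wild type and at 5.66, 5.54 and 6.42 in null, again highest in null replicate 3, with a difference of 0.45 (SE 0.22) that was 0.17 without that library. Nanos2 was low in all 6 libraries, at 0.64, 0.78 and 0.48 and at 1.04, -0.07 and 0.45, with 26 to 54 reads.

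Hsd17b3, of the Leydig cell list, encodes a testosterone-forming enzyme of the testis and had a peak scoring 70.5 at 44135 bp downstream. It was below wild type in every null library, an order that 6.02% of all tested genes had. It was at 7.67, 7.16 and 7.30 in wild type and at 7.07, 7.02 and 6.68 in null, a difference of -0.45 (SE 0.16, limma adjusted p = 0.755). Scarb1, the other Leydig cell gene with an intergenic peak, differed by 0.36 (SE 0.27) and overlapped between genotypes.

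Rara, Stra8 and Mybl1, of the retinoic acid and meiotic programme, overlapped between genotypes. Rara was at 5.30, 5.04 and 4.80 in wild type and at 5.10, 4.58 and 6.05 in null. Stra8 was at 6.44, 6.85 and 6.64 and at 6.67, 6.31 and 6.95, a difference of 0.00 (SE 0.18). Mybl1 was at 5.07, 4.89 and 5.09 and at 5.21, 4.72 and 5.06, a difference of -0.02 (SE 0.15). 

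Among nearest genes of grouped or high-scoring peaks, Btg2, Stard10 and N4bp2 were above wild type in every null library, an order that 5.06% of all tested genes had, and Atxn10 was below it in every null library, as 6.02% were. None passed adjustment. Btg2, with its group of 4 peaks, was at 5.64, 5.66 and 5.54 in wild type and at 5.91, 5.85 and 5.95 in null, a difference of 0.29 (SE 0.10, limma adjusted p = 0.755). Stard10, which encodes a lipid transfer protein and had a peak scoring 1235 at 7222 bp upstream, was at 3.42, 3.27 and 2.84 and at 3.64, 3.72 and 3.88, a difference of 0.57 (SE 0.19). N4bp2 was at 6.77, 6.74 and 6.86 and at 6.95, 6.91 and 7.2, a difference of 0.23 (SE 0.11) and of 0.14 without null replicate 3. Atxn10, with a peak scoring 1135 at 17858 bp upstream, was at 7.45, 7.47 and 7.49 and at 7.41, 7.42 and 6.997, a difference of -0.19 (SE 0.13). Null replicate 3 was the farthest below wild type, and null replicates 1 and 2 lay close to wild type. Atp2a2 (0.34, SE 0.21), Drp2 (0.54, SE 0.29) and Tardbp (-0.12, SE 0.11) overlapped between genotypes. Without null replicate 3 the differences were 0.09 for Atp2a2, 0.36 for Drp2 and -0.008 for Tardbp. The Drp2 difference was 0.26 without wild-type replicate 1, and that of Tardbp -0.19 without null replicate 2.

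**Figure D5:**
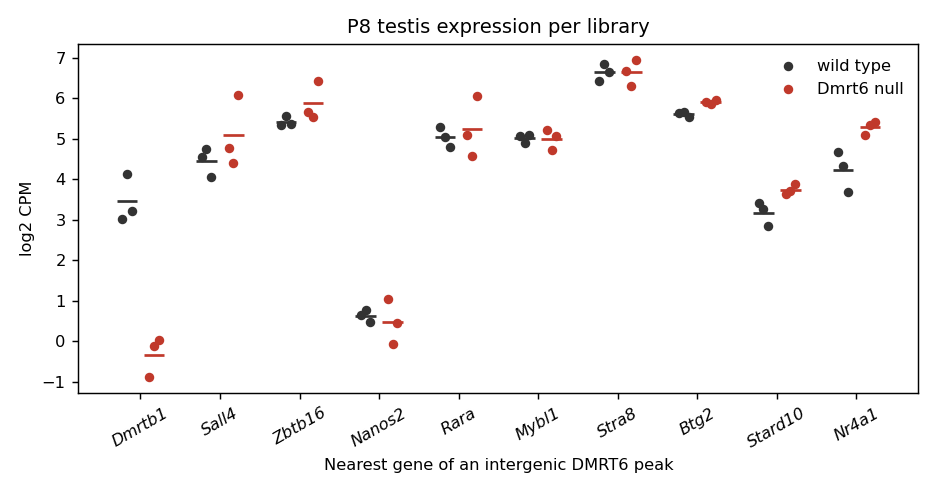
log2 CPM (y axis) of 10 nearest genes of intergenic DMRT6 peaks (x axis) in the 3 wild-type (black) and 3 Dmrt6 null (red) P8 testis libraries. Points are libraries and lines group means, and heights are not comparable between genes because CPM is not scaled to gene length. Dmrtb1 has a mean of 3.45 in wild type and -0.33 in null, while Sall4, Zbtb16, Nanos2, Rara, Mybl1 and Stra8 overlap between genotypes.

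The nearest genes of smallest unadjusted p, kept by a rule that passes over predicted gene models, did not pass adjustment either. Higher in null were Nr4a1, an immediate early nuclear receptor gene, at 4.67, 4.34 and 3.69 in wild type and 5.08, 5.35 and 5.41 in null (1.05, SE 0.24, limma adjusted p = 0.755), Srrm4, a neural splicing regulator (0.81, SE 0.22), Prelp, a matrix proteoglycan (0.77, SE 0.22), the axonemal dynein gene Dnahc5 (1.38, SE 0.41) and the kinase gene Sik1 (0.78, SE 0.25, and 0.499 without null replicate 3), which was nearest to 3 peaks. Lower, besides Dmrtb1, were Stambpl1, a deubiquitinase gene (-0.53, SE 0.16), Arhgap15, a GTPase regulator (-1.0, SE 0.31), Miox, which encodes an inositol-degrading enzyme (-1.19, SE 0.37), the mitotic kinase gene Pbk at 6.52, 6.47 and 6.40 in wild type and 6.31, 5.97 and 6.00 in null (-0.37, SE 0.12), and Fam155a (-1.27, SE 0.41). All of these except Dmrtb1 had an adjusted p of 0.755. The Nr4a1 peak, 7252 bp upstream, scored 70.4, and the Pbk peak, 1220 bp upstream, 77.4. The highest apart from Dmrtb1 were those of Sik1 (241) and Stambpl1 (207).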

How the data were processed

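Peaks are regions deposited by the authors with 1 score each, called on 1 ChIP and 1 input library. The deposited peak names carry the prefix of the peak caller MACS, and the score's scale is not stated. Expression values are log2 CPM deposited by the authors. Build mm9 and the tools edgeR, Picard, Bowtie2 and STAR 2.3.0e are named, without roles, per the submitters' processing notes. Not given in the sources used here are the counter, the annotation release and the strand setting. Whole reads were recovered from the steps of the values (100% whole at a tolerance of 1e-06), 23.8 to 29.0 M per library. ChIP depth is unknown.

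Coordinates are mm9, 1-based. Distances run from a peak's middle to the outer 5' end of a gene in the table of 22744 genes, which gives 1 start per gene, so other starts and genes outside the table were not considered. Nearest 5' ends were never tied. Intervals are exact (scipy 1.17.1). Peaks from 1 library were described without a test.

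Genes with a mean log2 CPM of at least 0 over the 6 libraries were fitted with limma-trend (limma 3.58.1, R 4.3.3), genotype only, with Benjamini-Hochberg adjustment at 0.05, and tested on simulated data. An exact permutation test of 3 against 3 cannot go below p = 0.1. Named are the 10 members of highest score, those at the limits of the rule, the widest, the largest groups, nearest genes with most members or in marker lists, and the 6 genes of smallest p per direction, passing over symbols of Gm and digits or ending in Rik. Gm17019, Stard10, Atxn10, Spink2, the microRNA genes, the promoter motif and the X window were added after their values were seen. Members and lists were chosen with earlier results of these data known. Of the genes this rule names, 2 are not reported here.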

Additional observations from a re-analysis of the deposited data

How the results depend on the processing

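The count of nearest genes past the threshold, 0, was 1 with no filter on low values, with quantile normalization, with median centring, with a prior of 2 reads and with the replicate block, and 0 to 1 when single libraries were left out. The 1 gene was Dmrtb1 in each case (adjusted p 0.00678 to 0.289 over the alternatives that kept it, since a mean of at least 2 log2 CPM left it out), and it passed without null replicate 3. Over all tested genes 1 passed without these changes, and 0 to 5 passed with them. Same-numbered libraries did not deviate together (correlations -0.09, -0.22 and -0.04), so the block pairs numbers, not animals. With the replicate block 44 nearest genes (2.08%) had an unadjusted p below 0.05, against 2.12% of all tested genes. Without the block it was 75 (3.55%), against 3.47% of all. Leaving out null replicate 2 gave 366 (17.3%), when the share over all tested genes was 15.3%. Leaving out wild-type replicate 1 gave 30 (1.42%, against 1.61% of all), and wild-type replicate 3 gave 33 (1.56%, against 1.47% of all). The median difference of nearest genes was 0.0041 with quantile normalization, -0.0074 with median centring and 0.0056 to 0.0495 with single libraries left out, and the difference from all tested genes was 0.03 under both scalings. Changes near 0 turned sign: Stra8 was at -0.0315 with quantile normalization, -0.0442 with median centring, -0.00325 with voom and -0.15 to 0.17 with single libraries left out, Mybl1 at -0.12 to 0.12, Nanos2 at -0.44 to 0.11 and Rara at -0.21 to 0.53. With peaks scoring at least 100 there were 1761 members, 75.3% of them upstream, with a median score of 170 and a density ratio of 2.41. Without Gm and Rik gene models 76.9% lay upstream. Placing whole peaks, genes of at least 1 CPM or autosomes alone left the 4 peak measures within 1.5 times for the count and within the intervals for the others. The planned motif search in peaks was not run, since no mm9 genome was used. Depth limits what can be said of genes with few reads: 3 reads correspond to at most 0.126 CPM in a library.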
